A study of Mus musculus with 24 samples.

Results

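The tumour necrosis factor (TNF) superfamily was followed as 43 genes, of which 17 encode ligands and 26 encode receptors, among the 55487 genes counted in RNA from mouse colon and colorectal tumours. Members were every protein-coding gene with a Tnfsf or Tnfrsf symbol followed by a digit, together with Tnf, Lta, Ltb, Ltbr, Fas, Fasl, Cd40, Cd40lg, Eda, Eda2r, Edar and Ngfr. The rule uses symbols and no measured value, but it was set with earlier results of these data known. Of all genes in the tables, 21974 are protein-coding. The mice, all labelled C57BL/6, had Axin1 deleted in intestinal epithelial cells (KO) or were wild type (WT). Axin1 holds together the protein complex that targets beta-catenin, the Wnt signal carrier, for degradation. The groups were untreated KO and WT colon from mice on water, KO and WT colon at day 7 and at day 13 of dextran sulfate sodium (DSS) treatment, which injures the colonic lining, and KO and WT tumours induced with the carcinogen azoxymethane (AOM) plus DSS. There were 8 groups with 3 biological replicates each, according to the series, in 18 colon and 6 tumour libraries. The deletion is restricted to epithelium, whereas the libraries hold RNA of whole colon or tumour, so immune, stromal and muscle cells carry an intact Axin1 in every group. The sources used here do not name the driver of the recombinase, the ages or the DSS and AOM schedules.

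TNF superfamily ligands are mostly trimers that sit on the cell surface or are shed from it, and they signal by clustering their receptors. Some receptors carry a death domain and can start apoptosis or necroptosis, others recruit adaptors that activate NF-kappaB, and a few are decoys that bind a ligand without passing on a signal. In the gut, TNF is a driver of inflammation and a drug target in inflammatory bowel disease, lymphotoxins shape lymphoid follicles, and the B cell factors of the family support antibody production.

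The libraries held 15.7 M to 28.1 M expected counts with a median of 23.6 M, of which the members took 0.0434% to 0.126%. Axin1 was at 33.2%, 31.6%, 29.0% and 33.0% of its WT level in KO untreated, day 7, day 13 and tumour libraries, with no overlap between genotypes, although the tumour difference did not pass (adjusted p = 0.0866). The labels give no sex. Genes of the Y chromosome were expressed in 3 of 3 KO and 2 of 3 WT untreated libraries, in 1 of 3 KO and 0 of 3 WT libraries at day 7, in 0 of 3 KO and 3 of 3 WT libraries at day 13, and in 2 of 3 tumours of each genotype. At day 13 genotype and sex therefore cannot be told apart. Time and sex cannot be told apart in KO day 13 against untreated KO colon, nor in WT day 13 against WT day 7. Day 7 and untreated libraries were also unbalanced in sex in both genotypes. Marker genes set 4 libraries apart. KO day 13 replicate 1 and WT day 13 replicate 3 held 1260 and 5458 CPM (read counts scaled to library size) of squamous epithelium markers, against at most 51.4 CPM in the other day 13 libraries. WT day 7 replicate 2 had more smooth muscle (13451 CPM) and fibroblast (6108 CPM) marker RNA than any other colon library. KO untreated replicate 3 had the lowest neutrophil marker sum (6.61 CPM).

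In untreated colon the family was dominated by a few receptors. TPM, a unit that corrects for gene length and library size, put Ltbr, the lymphotoxin beta receptor, first at 76.1 ± 3.14 TPM in KO and 77.9 ± 4.85 TPM in WT (SD, n = 3 each). Tnfrsf1a, the broadly expressed TNF receptor with a death domain, followed at 48.6 ± 3.58 TPM in KO and 47.6 ± 6.11 TPM in WT. Both stood clear of the next gene, since the lowest Tnfrsf1a library reached 45.5 TPM in KO and 44.0 TPM in WT while the highest library of Tnfrsf11a, the receptor of the osteoclast factor Tnfsf11, was at 33.0 TPM in KO and 34.5 TPM in WT. Tnfrsf11a, the death-domain receptor Tnfrsf21 and the B cell ligand Tnfsf13 shared the next places at 24.2 to 30.4 TPM, and their ranges overlapped. Tnfsf13 was the only ligand at 10 TPM or more in either genotype. Its counts are uncertain because it and the neighbouring Tnfsf12 overlap the readthrough gene Tnfsfm13 on the same strand.

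Most ligands were scarce. The ligands together made 15.9% to 17.4% of the summed TPM of the family in KO untreated libraries and 17.9% to 19.4% in WT. The family summed to 292.6 to 305.4 TPM in KO untreated libraries and 283.7 to 316.8 TPM in WT. By mean level, 18 of 43 members were under 1 TPM in KO and 19 in WT. Cd40lg, the T cell ligand of Cd40, had 3 counts over the 3 KO libraries and 5 over the WT libraries, and Fasl, the death ligand of cytotoxic cells, had 8 in KO and 3 in WT. Tnfsf4 and Tnfsf18, costimulatory ligands for T cells, had 3 and 4 counts in KO and 2 and 1 in WT. These 4 genes were too low for testing in colon, which left 39 members there.

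**Figure D1:**
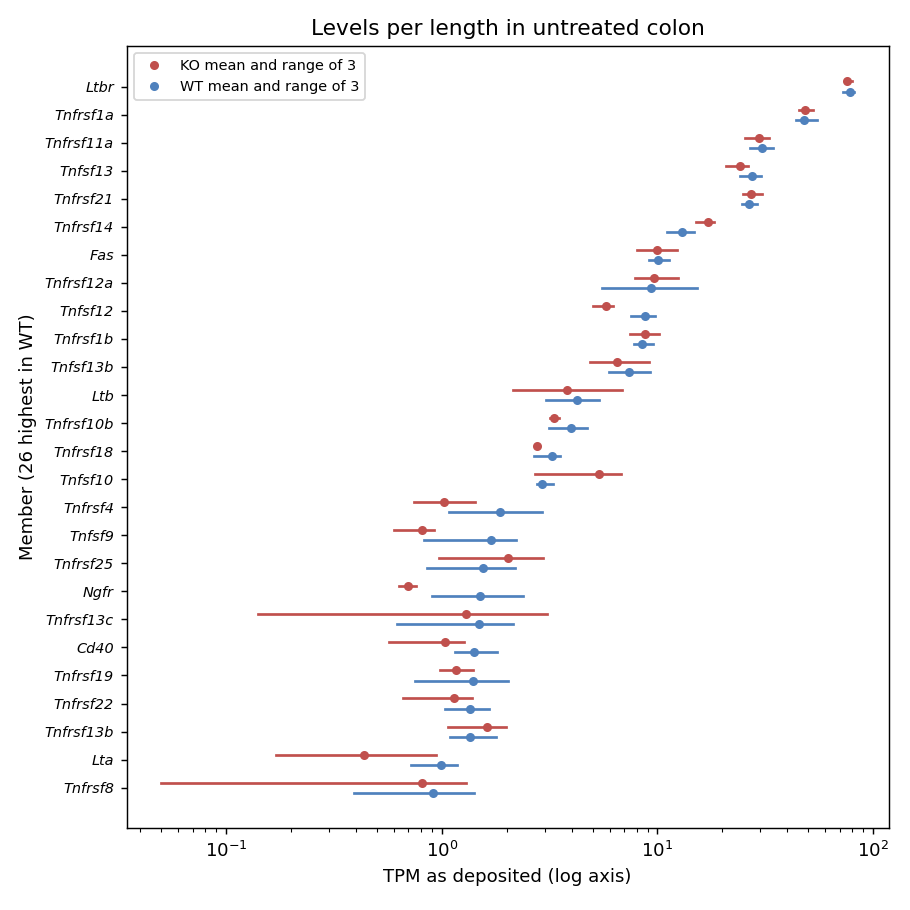
Levels of the 26 members highest in WT untreated colon, in TPM on a log axis, with the mean (point) and the range (line) of 3 libraries for KO (red) and WT (blue). Ltbr and Tnfrsf1a lie to the right of all other members in both genotypes, and the ranges of KO and WT overlap for most members.

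Without treatment no member passed the test between genotypes. Quasi-likelihood testing in edgeR over all genes, at an adjusted p under 0.05, passed 0.011% of 18102 genes. The libraries of KO lay wholly above those of WT for 3 members and wholly below for 2, where 9.06% and 8.83% of all genes did so. The 3 members with the smallest p did not pass: Tnfrsf23, a decoy receptor for the death ligand Tnfsf10, with a log2 change of 1.68 ± 0.56 (SE, adjusted p = 0.624), Tnfsf9, a costimulatory ligand, with -0.96 ± 0.40 (adjusted p = 0.754), and Tnfrsf14, the receptor of Tnfsf14, with 0.55 ± 0.23 (adjusted p = 0.758). At an unadjusted p under 0.05 there were 3 members, against 6.53% of all genes, and DESeq2 called no member among 64 genes. The 95% interval for Tnf ran from -0.38 to 2.30, so a difference of several-fold in a gene this low was not resolved.

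Under DSS part of the family rose in WT colon, and fewer members rose in KO colon. In WT colon 9 of 39 members tested rose at day 7 and 7 rose at day 13, and none fell at either time. In KO colon 3 rose at day 7, 1 fell, and none passed at day 13. Between genotypes at day 13, 5 members were lower in KO (Tnfsf14, Tnfrsf1b, Tnfrsf10b, Tnfrsf11b and Tnfrsf23), and none was higher. Among all genes tested, 8.5% passed as higher at day 7 in WT, 3.21% as higher at day 13 in WT, 8.57% as higher and 4.07% as lower at day 7 in KO, 0.0276% in either direction at day 13 in KO, and 1.86% as lower in KO at day 13 (2.51% in either direction). At day 7 in WT 7.77% passed as lower, and at day 13 in WT 1.03% did (4.24% in either direction). In bulk tissue, fewer cells of a type and less RNA per cell cannot be told apart.

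**Figure D2:**
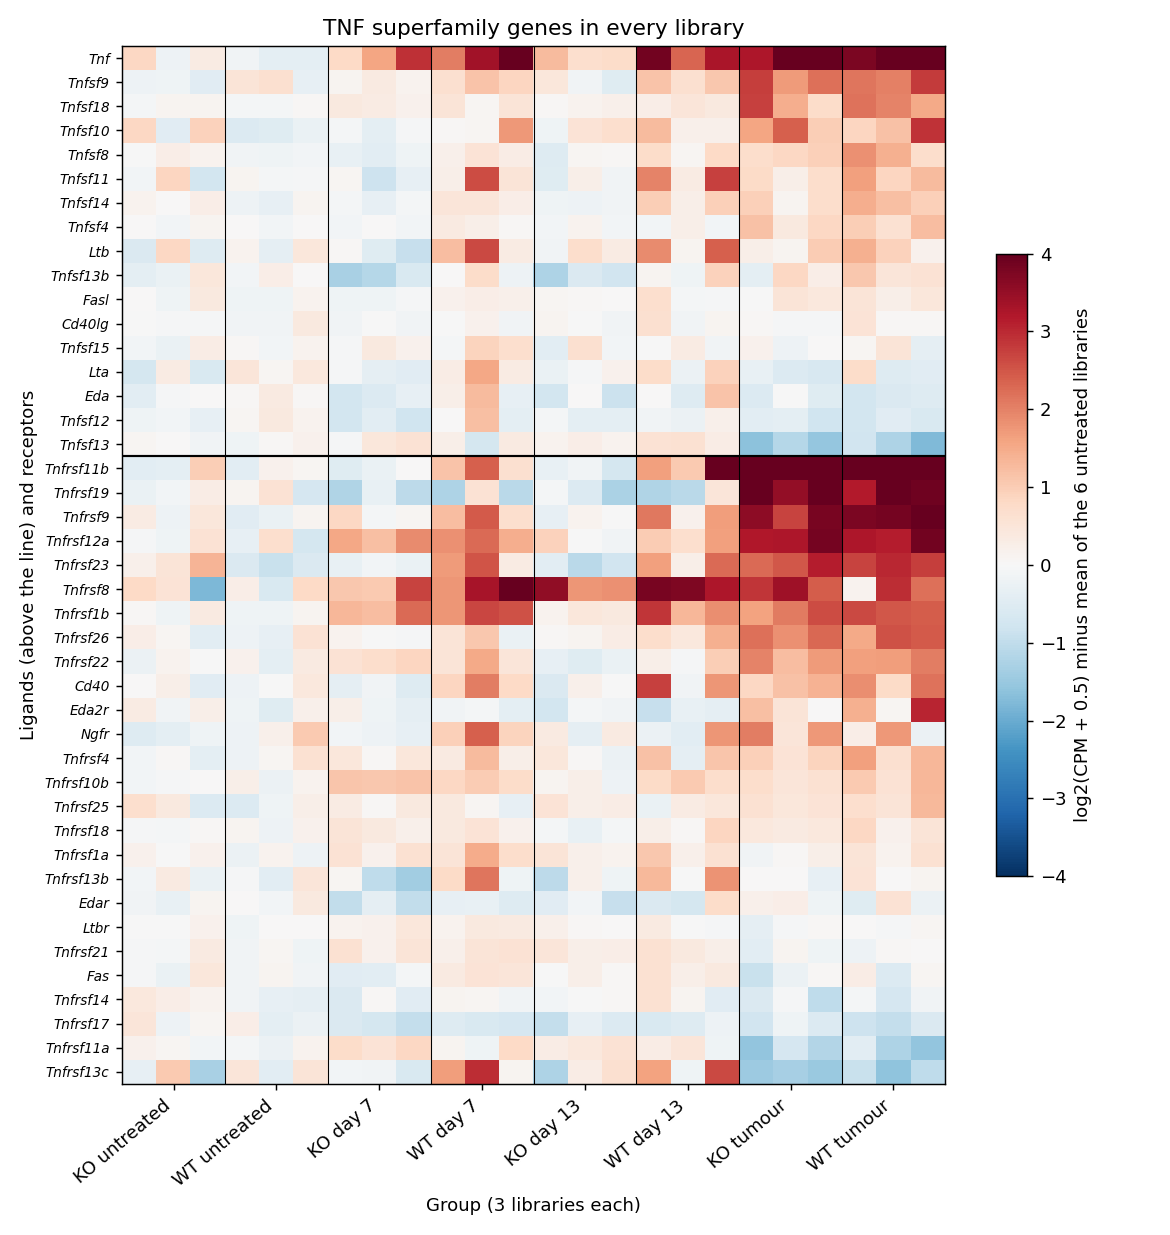
Level of all 43 members in each of the 24 libraries, as log2(CPM + 0.5) minus the mean of the 6 untreated libraries, with colours limited to 4 in either direction. Ligands stand above the line and receptors below it, and in each pair of groups KO is left of WT. Tnf and Tnfrsf1b are red in WT colon at both DSS times and in tumours, and paler in KO colon at day 13.

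Tnf, the inflammatory cytokine that names the family, had the largest rise among the 13 ligands tested in WT colon under DSS. In KO colon it was at 2.47, 0.935 and 1.56 CPM untreated, 2.36, 4.47 and 12.03 CPM at day 7 and 3.49, 2.14 and 2.27 CPM at day 13. In WT colon it was at 0.997, 0.751 and 0.756 CPM untreated, 6.28, 16.4 and 35.9 CPM at day 7 and 23.4, 7.86 and 15.4 CPM at day 13. Every DSS-treated WT library lay above every untreated WT library, and at day 13 the KO libraries were all lower than the WT libraries. In WT the log2 change over untreated was 4.49 ± 0.72 at day 7 (22.4-fold, adjusted p = 0.00184) and 4.18 ± 0.72 at day 13 (18.2-fold, adjusted p = 0.00891). In KO it was 1.92 ± 0.65 at day 7 (adjusted p = 0.0665) and 0.67 ± 0.65 at day 13 (adjusted p = 0.878), neither of which passed. Between genotypes the log2 change of Tnf was -1.60 ± 0.62 at day 7 (adjusted p = 0.122) and -2.55 ± 0.65 at day 13 (adjusted p = 0.0532), just outside the threshold. The difference of the day 13 responses, KO less WT, was -3.51 ± 0.94 and did not pass (adjusted p = 0.129).

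The promoters of Tnf and of 3 receptors that rose with it in WT colon at day 7 are shown to set the sequence beside the change. Each is the 250 bases before the annotated start on GRCm38, from RefSeq, read 5′ to 3′ on the strand of the gene. Capitals mark matches to the NF-kappaB consensus and to the AP-1 motif TGANTCA, searched on both strands.
Tnf, chr17:35202008-35202257, minus strand: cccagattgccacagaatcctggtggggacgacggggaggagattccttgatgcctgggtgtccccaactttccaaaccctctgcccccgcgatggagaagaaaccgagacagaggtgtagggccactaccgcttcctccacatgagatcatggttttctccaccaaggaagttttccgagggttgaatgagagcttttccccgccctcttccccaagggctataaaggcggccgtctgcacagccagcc
Tnfrsf1b, chr4:145246871-145247120, minus strand: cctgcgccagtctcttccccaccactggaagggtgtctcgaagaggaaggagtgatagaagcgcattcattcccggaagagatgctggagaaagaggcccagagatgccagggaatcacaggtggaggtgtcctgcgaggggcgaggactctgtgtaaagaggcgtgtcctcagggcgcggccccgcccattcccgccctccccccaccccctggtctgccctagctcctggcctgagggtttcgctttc
Tnfrsf8, chr4:145315165-145315414, minus strand: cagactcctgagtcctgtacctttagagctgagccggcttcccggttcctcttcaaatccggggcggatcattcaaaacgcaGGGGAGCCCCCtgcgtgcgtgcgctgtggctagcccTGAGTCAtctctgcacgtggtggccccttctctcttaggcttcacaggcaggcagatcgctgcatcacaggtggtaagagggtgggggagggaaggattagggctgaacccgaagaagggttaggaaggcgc
Tnfrsf9, chr4:150927749-150927998, plus strand: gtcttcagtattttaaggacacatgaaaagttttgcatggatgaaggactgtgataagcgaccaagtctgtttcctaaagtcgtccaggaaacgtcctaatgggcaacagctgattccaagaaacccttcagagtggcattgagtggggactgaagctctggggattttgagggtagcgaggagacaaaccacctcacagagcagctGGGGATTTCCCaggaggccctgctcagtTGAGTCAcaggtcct
The windows of Tnfrsf8 and Tnfrsf9 each hold 2 overlapping NF-kappaB matches and 1 AP-1 match. Tnfrsf9 has another window, chr4:150919905-150920154, that holds neither motif, and both of its windows lie inside the annotated gene. The window with more NF-kappaB matches was the one shown. Of the other members that rose in WT at day 7, Tnfrsf1a, Tnfrsf12a, Tnfrsf21 and Tnfrsf23 have windows with neither motif, and Tnfrsf10b has no window. For Tnf and Tnfrsf1b neither motif was found in these 250 bases. Of 38 windows for 34 members, 4 hold the NF-kappaB consensus, 6 the AP-1 motif and 7 the TCF motif CTTTGA, against 7.25%, 6.75% and 13.8% of 32851 promoters of the same length. A match is a description of the letters, not a measured binding site.

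Tnfsf14, a ligand of activated T cells that binds Ltbr and Tnfrsf14, was the only ligand that passed between genotypes at day 13. In KO colon it was at 0.243, 0.187 and 0.321 CPM untreated, 0.144, 0.0426 and 0.145 CPM at day 7 and 0.0970, 0.0909 and 0.117 CPM at day 13. In WT colon it was at 0.0867, 0.0395 and 0.222 CPM untreated, 0.448, 0.448 and 0.313 CPM at day 7 and 0.852, 0.293 and 0.822 CPM at day 13. The genotypes did not overlap at day 7 or day 13, where KO was lower. The log2 change in KO against WT was -1.80 ± 0.60 at day 7 (adjusted p = 0.0858) and -2.60 ± 0.58 at day 13 (adjusted p = 0.0294). The day 13 call rests on few reads, with 2, 2 and 3 counts in KO and 19, 7 and 17 counts in WT. It was lost in 9 of 12 alternative fits, with log2 changes of -3.25 to -2.36. In WT the gene rose at day 13 (log2 change 2.43 ± 0.57, adjusted p = 0.0291), a call lost in 6 of 12 alternative fits.

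The lymphotoxins, which B and T cells make for lymphoid follicles, were uneven between libraries of a group. Ltb, the membrane partner of lymphotoxin alpha, was at 1.70, 5.39 and 1.80 CPM untreated, 2.89, 1.83 and 1.26 CPM at day 7 and 2.47, 4.82 and 3.64 CPM at day 13 in KO. Its WT values were 3.16, 2.09 and 4.001 CPM untreated, 7.22, 20.1 and 3.66 CPM at day 7 and 11.6, 3.05 and 16.7 CPM at day 13. Each DSS-treated WT group held 1 library near the untreated level. The genotypes did not overlap at day 7, where the log2 change in KO against WT was -2.33 ± 0.69 (adjusted p = 0.072), and they overlapped at day 13 (-1.51 ± 0.66, adjusted p = 0.242). Lta was at 0.162, 0.861 and 0.2003 CPM untreated, 0.529, 0.341 and 0.29 CPM at day 7 and 0.388, 0.545 and 0.704 CPM at day 13 in KO. In WT it was at 0.997, 0.632 and 0.933 CPM untreated, 0.807, 2.62 and 0.835 CPM at day 7 and 1.301, 0.418 and 1.55 CPM at day 13. The highest of these libraries was WT day 7 replicate 2. Its log2 change in KO against WT was -1.81 ± 0.66 at day 7 (adjusted p = 0.104) and -0.97 ± 0.63 at day 13 (adjusted p = 0.455). B cell and follicle markers were also uneven between libraries. They summed to 15.5 to 58.0 CPM in KO and 48.9 to 409.7 CPM in WT at day 7, and to 18.04 to 79.6 CPM in KO and 56.2 to 334.3 CPM in WT at day 13. None of the 12 markers in that list passed between genotypes at either time. Their part in the Ltb values was not tested.

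Tnfsf13b encodes the B cell survival factor BAFF. It was at 5.99, 6.66 and 11.3 CPM untreated, 2.98, 3.41 and 5.12 CPM at day 7 and 3.15, 5.22 and 4.54 CPM at day 13 in KO. WT colon had 7.41, 9.72 and 8.18 CPM untreated, 8.11, 13.7 and 6.94 CPM at day 7 and 8.61, 7.07 and 15.7 CPM at day 13. KO lay below WT in every library at both DSS times. The log2 change in KO against WT was -1.28 ± 0.36 at day 7 (adjusted p = 0.0685) and -1.27 ± 0.36 at day 13 (adjusted p = 0.0754), and over the average of untreated, day 7 and day 13 colon it was -0.89 ± 0.21 and passed (adjusted p = 0.0286). The KO day 7 and day 13 libraries also lay below the untreated KO libraries, without passing (adjusted p = 0.0693 and 0.565).

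Tnfsf9, the costimulatory ligand of Tnfrsf9, was low throughout. In KO it was at 0.768, 0.786 and 0.561 CPM untreated, 1.06, 1.36 and 1.11 CPM at day 7 and 1.503, 0.818 and 0.548 CPM at day 13. In WT it was at 1.60, 1.78 and 0.667 CPM untreated, 1.79, 2.69 and 2.14 CPM at day 7 and 2.74, 1.76 and 2.56 CPM at day 13. KO was below WT without overlap at day 7 and day 13. No single time passed, and the average over colon did, with a log2 change in KO against WT of -1.04 ± 0.23 (adjusted p = 0.0239).

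Of the receptors of TNF itself, Tnfrsf1b, which is found mainly on immune and endothelial cells, moved most. In KO it was at 24.3, 20.6 and 29.9 CPM untreated, 58.6, 55.8 and 112.9 CPM at day 7 and 25.8, 31.8 and 30.5 CPM at day 13. Levels in WT were 20.7, 20.5 and 24.9 CPM untreated, 80.3, 152.3 and 138.8 CPM at day 7 and 172.8, 59.0 and 85.5 CPM at day 13. KO thus rose at day 7 and was back near its untreated range at day 13, where WT was still above it in every library. The day 7 change was 1.61 ± 0.36 in KO (adjusted p = 0.00856) and 2.43 ± 0.37 in WT (adjusted p = 0.00144). From day 7 to day 13 the gene fell in KO (-1.36 ± 0.35, adjusted p = 0.019), and in WT the change was -0.20 ± 0.35 (adjusted p = 0.82). At day 13 the log2 change in KO against WT was -1.83 ± 0.36 (adjusted p = 0.0186), which is 3.56-fold lower.

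Tnfrsf1a showed a smaller change. It was at 76.8, 67.3 and 76.8 CPM untreated, 103.1, 77.3 and 105.4 CPM at day 7 and 98.1, 79.6 and 74.9 CPM at day 13 in KO. For WT the values were 58.5, 75.0 and 59.8 CPM untreated, 98.5, 194.7 and 111.9 CPM at day 7 and 145.4, 78.9 and 105.5 CPM at day 13. It rose at day 7 in WT (log2 change 1.01 ± 0.24, adjusted p = 0.0133), and the genotypes overlapped at all times.

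**Figure D3:**
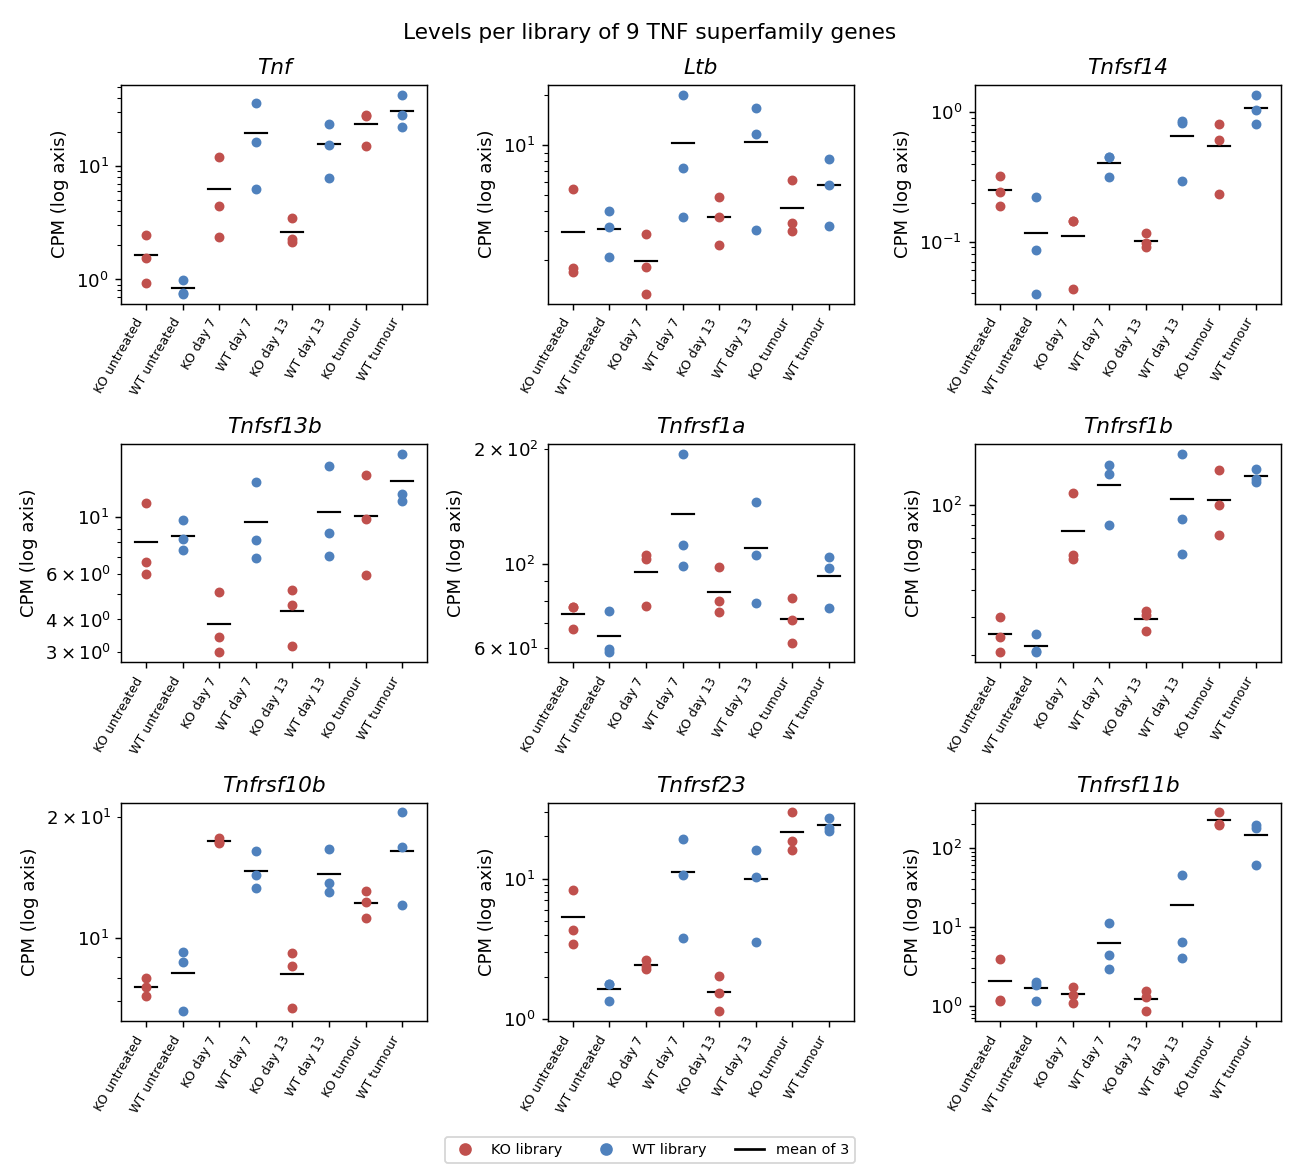
CPM of 9 members in each library, on log axes with a separate scale per gene, with KO libraries in red left of WT libraries in blue and a bar at the mean of 3. At day 13 Tnf, Tnfsf14, Tnfsf13b, Tnfrsf1b, Tnfrsf10b, Tnfrsf23 and Tnfrsf11b have all 3 KO points below all 3 WT points, while Tnfrsf10b at day 7 has KO above WT.

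The death receptors and decoys differed among themselves. Tnfrsf10b, the mouse death receptor for Tnfsf10, rose at day 7 in both genotypes. It was at 7.20, 7.56 and 7.97 CPM untreated, 17.4, 17.2 and 17.7 CPM at day 7 and 8.53, 9.22 and 6.73 CPM at day 13 in KO. In WT it was at 9.27, 6.60 and 8.76 CPM untreated, 14.4, 16.4 and 13.4 CPM at day 7 and 13.7, 16.6 and 13.05 CPM at day 13. All treated libraries were above their untreated group except those of KO at day 13, which spanned the untreated KO range. Tnfrsf10b rose at day 7 in KO (1.21 ± 0.16, adjusted p = 0.000419) and in WT (0.78 ± 0.16, adjusted p = 0.00626). It fell from day 7 to day 13 in KO (-1.09 ± 0.16, adjusted p = 0.000534), where WT changed by 0.01 ± 0.16. The log2 change in KO against WT was 0.28 ± 0.16 at day 7 (adjusted p = 0.273) and -0.82 ± 0.16 at day 13 (adjusted p = 0.0201).

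Tnfrsf23 and Tnfrsf22, mouse decoy receptors for Tnfsf10, are near copies in a cluster with Tnfrsf26 on chromosome 7, so reads may be shared among them. Tnfrsf23 was at 3.44, 4.34 and 8.25 CPM untreated, 2.26, 2.64 and 2.37 CPM at day 7 and 2.04, 1.14 and 1.53 CPM at day 13 in KO. The WT libraries had 1.78, 1.34 and 1.78 CPM untreated, 10.6, 19.2 and 3.76 CPM at day 7 and 10.2, 3.55 and 16.04 CPM at day 13. Without treatment every KO library was above every WT library, and at both DSS times every KO library was below every WT library. The log2 change in KO against WT was -2.16 ± 0.56 at day 7 (adjusted p = 0.0647) and -2.66 ± 0.57 at day 13 (adjusted p = 0.0269). Its difference of responses, KO less WT, had the smallest p of all members, at -3.84 ± 0.79 for day 7 (adjusted p = 0.175) and -4.34 ± 0.80 for day 13 (adjusted p = 0.0735), and did not pass. Tnfrsf22 fell from day 7 to day 13 in KO (log2 change -1.29, adjusted p = 0.0302).

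Fas, the death receptor of Fasl, passed in no comparison between genotypes. In KO it was at 8.69, 7.37 and 12.7 CPM untreated, 6.40, 6.64 and 8.46 CPM at day 7 and 8.82, 10.7 and 9.27 CPM at day 13. Its WT values were 8.19, 9.80 and 8.22 CPM untreated, 11.6, 13.4 and 12.9 CPM at day 7 and 14.1, 10.7 and 11.9 CPM at day 13. KO was below WT at both DSS times, though the highest KO and lowest WT library nearly met at day 13, by a log2 change of -0.78 ± 0.20 at day 7 (adjusted p = 0.0647) and -0.34 ± 0.19 at day 13 (adjusted p = 0.378).

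Tnfrsf11b, osteoprotegerin, is a secreted decoy for Tnfsf11 and Tnfsf10. In KO it was at 1.17, 1.197 and 3.89 CPM untreated, 1.11, 1.36 and 1.74 CPM at day 7 and 1.31, 1.54 and 0.861 CPM at day 13. In WT it was at 1.17, 2.02 and 1.87 CPM untreated, 4.44, 11.3 and 2.98 CPM at day 7 and 6.42, 4.10 and 46.0 CPM at day 13. WT day 13 replicate 3, the library with squamous markers, was far above the rest. The log2 change in KO against WT at day 13 was -3.92 ± 0.85 (adjusted p = 0.0266), and -2.06 without that library (adjusted p = 0.129). In WT the change at day 13 over untreated was 3.46 ± 0.82 (adjusted p = 0.0329), and 1.60 without it (adjusted p = 0.14).

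Receptors of costimulation and growth followed. Cd40, a receptor of B cells and antigen-presenting cells, was at 1.13, 1.42 and 0.681 CPM untreated, 0.770, 0.979 and 0.628 CPM at day 7 and 0.582, 1.36 and 1.10 CPM at day 13 in KO. The WT level was 0.910, 1.11 and 1.69 CPM untreated, 2.42, 6.20 and 2.30 CPM at day 7 and 10.3, 0.962 and 4.98 CPM at day 13. The genotypes were apart at day 7 and overlapped at day 13 through WT replicate 2. Cd40 passed over the colon average (log2 change in KO against WT -1.58 ± 0.37, adjusted p = 0.0305).

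Tnfrsf9, a costimulatory receptor of activated lymphocytes, was at 0.445, 0.150 and 0.521 CPM untreated, 0.818, 0.213 and 0.290 CPM at day 7 and 0.0970, 0.318 and 0.235 CPM at day 13 in KO. Levels in WT were 0.0433, 0.119 and 0.311 CPM untreated, 1.26, 3.58 and 0.679 CPM at day 7 and 2.69, 0.334 and 1.88 CPM at day 13. It rose in WT at day 7 (3.43 ± 0.90, adjusted p = 0.0196) and missed the threshold at day 13 (3.31 ± 0.90, adjusted p = 0.0503). The gene overlaps Camta1 on the other strand, and the sources used here do not say whether counting used strand. The same limit holds for Tnfrsf13b, Tnfrsf18, Tnfrsf19, Tnfrsf22, Tnfrsf23, Tnfrsf26, Tnfsf12, Tnfsf13, Tnfsf13b and Tnfsf9, which also overlap a gene on the other strand.

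Tnfrsf12a, the receptor of the growth and injury factor Tnfsf12, rose at day 7 in both genotypes. In KO it was at 5.26, 4.71 and 8.29 CPM untreated, 16.7, 13.2 and 21.5 CPM at day 7 and 10.7, 5.36 and 4.85 CPM at day 13. In WT it was at 4.16, 8.81 and 3.16 CPM untreated, 20.3, 27.6 and 15.7 CPM at day 7 and 11.4, 8.95 and 17.9 CPM at day 13. The day 7 libraries were above the untreated ones without overlap, with a log2 change of 1.498 ± 0.41 in KO (adjusted p = 0.0281) and 1.92 ± 0.42 in WT (adjusted p = 0.00806).

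Tnfrsf8, a receptor of activated lymphocytes, was at 3.24, 2.69 and 0.120 CPM untreated, 4.09, 3.96 and 13.6 CPM at day 7 and 24.7, 6.91 and 7.28 CPM at day 13 in KO. WT libraries held 2.12, 0.909 and 3.29 CPM untreated, 6.86, 20.6 and 37.8 CPM at day 7 and 29.7, 28.1 and 20.1 CPM at day 13. The genotypes overlapped at each time. In WT it rose at both times, by 3.31 at day 7 (log2, adjusted p = 0.0224) and 3.60 at day 13 (adjusted p = 0.0402). Tnfrsf21 was the smallest of the WT rises at day 7, with a log2 change of 0.47 (adjusted p = 0.0486). Tnfrsf17, the plasma cell receptor of the B cell factors, was the member that fell at day 7 in KO (-2.80, adjusted p = 0.0387), from few reads: 5 counts over 3 libraries at day 7 and 43 in the untreated ones.

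The comparison of genotypes at day 7 called no member, and 0.00552% of all genes passed. The members were nevertheless mostly on the low side: 32 of 39 log2 changes were negative, against 45.3% of all genes, and their median was -1.03, against 0.05 over all genes. There were 19 members at an unadjusted p under 0.05, against 27.0% of all genes, and 16 had KO below WT without overlap, against 13.9% of all genes. DESeq2 called 11 members, all lower in KO, among 2445 genes. Fas, Tnfrsf23 and Tnfsf13b had the smallest p. Leaving out WT day 7 replicate 3 gave 9 members, of which 8 were lower and 1 higher in KO, and leaving out WT day 7 replicate 1 gave 2, and each of the other 4 libraries left out gave none.

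At day 13 the 5 calls sat among 35 of 39 negative log2 changes, against 51.8% of all genes, with a median of -0.97, against -0.02. KO was below WT without overlap for 16 members, against 12.3% of all genes. The number of calls depended on single libraries. It was 0 without WT replicate 1, KO replicate 1 or KO replicate 3, 1 without WT replicate 3 or KO replicate 2, and 12 without WT replicate 2. It was 1 without the 4 libraries set apart by markers, which was Tnfrsf11b, and 0 with Y-linked expression as a covariate. The log2 changes of the 5 members stayed negative in each of these fits. Averaged over the 3 colon conditions, 5 of 39 members passed, all lower in KO (Tnfsf9, Tnfsf13b, Cd40, Tnfrsf11b and Tnfrsf1b), against 3.88% of all genes lower, 0.961% higher and 4.84% in either direction. Without single libraries this count ran from 0 to 15: it was 0 without WT untreated replicate 2, KO day 7 replicate 1, KO day 13 replicate 3 or WT day 13 replicate 3, 15 without WT day 7 replicate 3 (14 lower and 1 higher) or WT day 13 replicate 2, 10 without WT day 7 replicate 1, 7 without KO untreated replicate 3, 4 without KO untreated replicate 2, and 1 to 3 without any of the others.

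**Figure D4:**
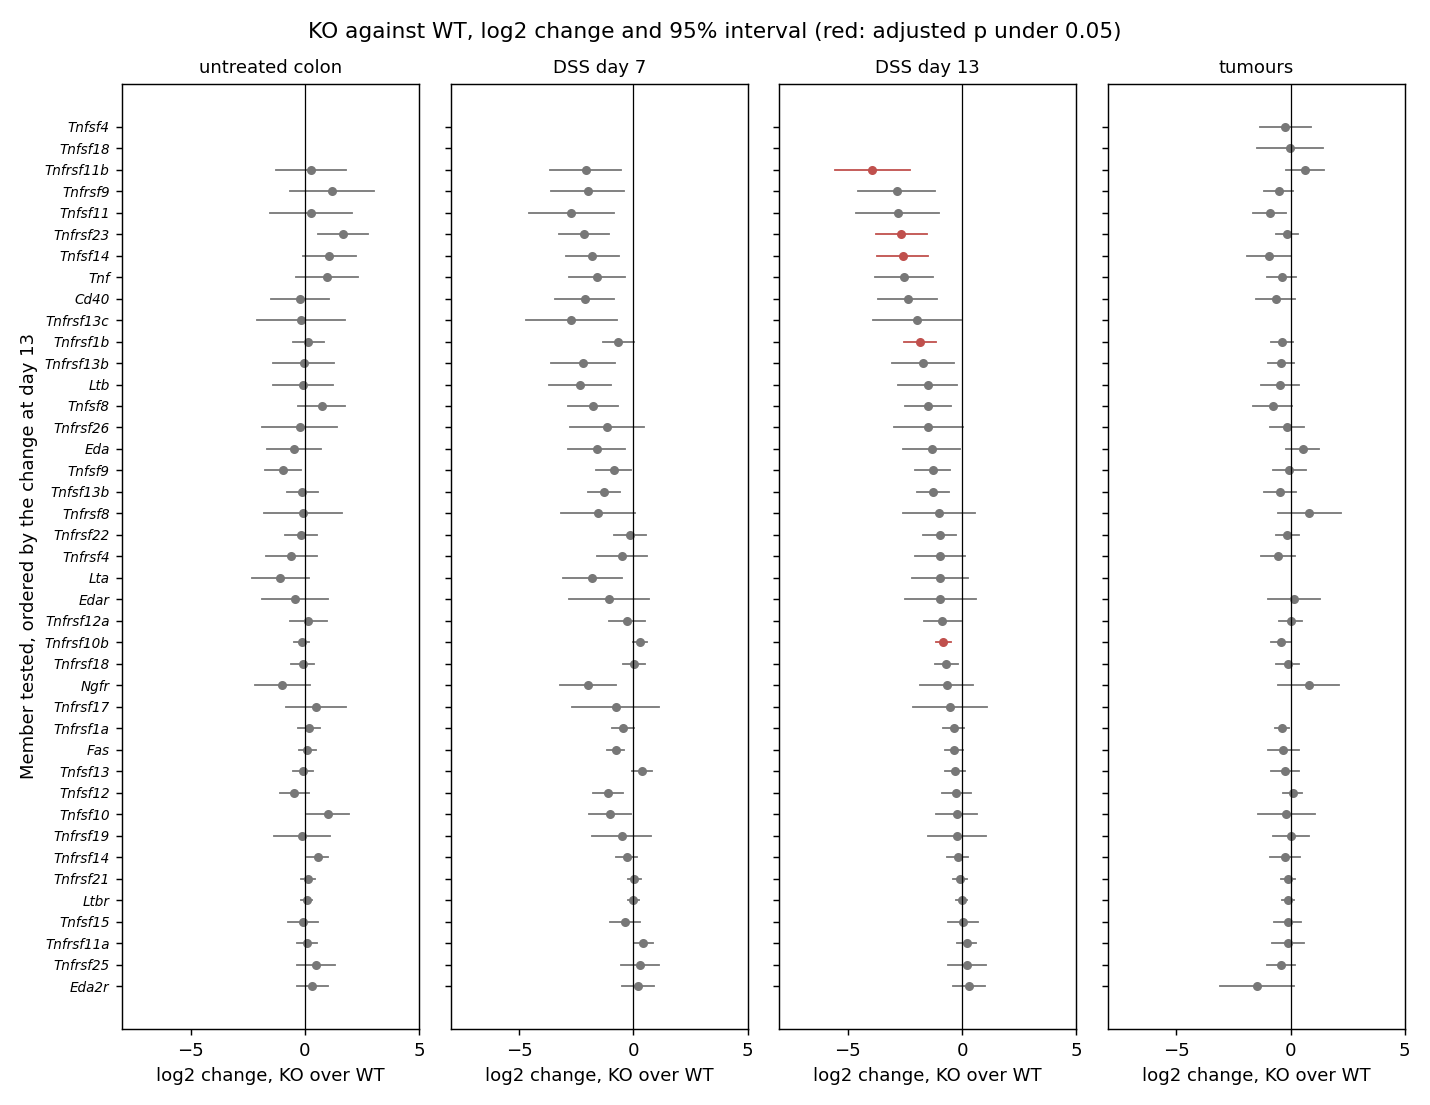
Log2 change of each member tested in KO against WT with its 95% interval, in 4 panels for untreated colon, day 7, day 13 and tumours, with members that passed in red. In the day 7 and day 13 panels most points lie left of 0, and the 5 red points are Tnfrsf11b, Tnfrsf23, Tnfsf14, Tnfrsf1b and Tnfrsf10b at day 13.

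None of the differences of responses passed for a member. The difference of the day 7 responses between genotypes called 0.0% of genes and that of day 13 called 0.011%. Y-linked expression went from 3 of 3 untreated to 0 of 3 day 13 libraries in KO. The day 13 difference of responses therefore cannot be told apart from sex. The 3 members with the smallest p were Tnfrsf23, Tnfsf14 (-2.87, adjusted p = 0.209) and Tnfsf8 (-2.51, adjusted p = 0.225) at day 7, and Tnfrsf23, Tnfsf14 (-3.67, adjusted p = 0.0902) and Tnfrsf1b (-1.98, adjusted p = 0.115) at day 13. For day 7, 13 members were at an unadjusted p under 0.05, against 13.7% of all genes, and for day 13, 12 members, against 13.5%. DESeq2 called 1 member among 350 genes for day 7 and 6 among 575 genes for day 13. For day 13, edgeR called 4 members without WT day 13 replicate 2 and 1 without KO untreated replicate 2. A rise that passed in WT and missed in KO is therefore not shown to differ by the edgeR test.

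Time within each genotype gave fewer calls. In KO 3 of 39 members fell from day 7 to day 13 (Tnfrsf10b, Tnfrsf1b and Tnfrsf22), against 8.61% of all genes, and 1 did without KO day 13 replicate 2, KO day 13 replicate 3 or KO day 7 replicate 3. For KO 4.22% of genes rose. In WT, where time and sex cannot be told apart between these days, none passed, and 0.0608% of genes did (0.0331% as lower). No member had WT day 13 libraries wholly above or below those of day 7, where 6.62% and 7.72% of all genes did. The smallest p in WT were those of Tnfsf13 (0.52, adjusted p = 0.262), Tnfrsf11b (1.65, adjusted p = 0.287) and Tnfrsf12a (-0.70, adjusted p = 0.413). There were 2 members at an unadjusted p under 0.05, against 16.9% of all genes, and DESeq2 called none among 745 genes. Against untreated KO colon at day 13, the smallest p were those of Tnfrsf23 (-1.76, adjusted p = 0.473), Tnfrsf8 (2.68, adjusted p = 0.48) and Tnfrsf17 (-1.92, adjusted p = 0.546). DESeq2 called none among 121 genes, and 4 members reached an unadjusted p under 0.05, against 7.62% of all genes. The day 13 libraries were wholly above untreated ones for 3 members and wholly below for 7 in KO, where 7.49% and 8.42% of all genes did so. Single libraries changed the counts in WT against untreated. At day 13 the 7 rises were 0 without WT untreated replicate 1, 1 without WT untreated replicate 2, 3 without WT untreated replicate 3 or WT day 13 replicate 3, 2 without WT day 13 replicate 1 and 13 without WT day 13 replicate 2. At day 7 the 9 rises were 5 without WT untreated replicate 1 and 6 to 10 without each of the others. At day 7 in KO the 4 calls were 1 without KO day 7 replicate 3, 2 without KO untreated replicate 1 and 3 without each of the others.

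Genes that act with the family were followed as lists, which were chosen with earlier results of these data known. Unlike the member calls, the list calls were not checked in the alternative fits. At day 13 genotype and sex cannot be told apart for them either. Of 22 genes known to be induced by TNF, 21 were tested in colon. In WT colon 16 of them rose at day 7 and 14 at day 13, against 8.5% and 3.21% of all genes. Their median log2 changes were 3.22 and 4.65. In KO colon 1 rose at day 7, against 8.57% of all genes, and none at day 13, against 0.0221%. Between genotypes at day 13, 13 were lower in KO, against 1.86% of all genes, with a median log2 change of -3.78. They included Il1b (-6.23 ± 0.93, adjusted p = 0.00835), which encodes an inflammatory cytokine of myeloid cells, and Ccl2 (-5.07 ± 0.80, adjusted p = 0.0107), which encodes a monocyte attractant. Among 18 NF-kappaB subunits, inhibitors and kinases, 9 rose and 2 fell in WT at day 7 and 6 rose in WT at day 13. Of all genes, 8.5% rose and 7.77% fell in WT at day 7, and 3.21% rose in WT at day 13. In KO 3 rose at day 7 and none passed at day 13 against untreated colon. From day 7 to day 13 in KO, Tnip1 (0.77), Relb (0.72) and Ikbkg (0.36) rose and Rel fell (-0.72). Those were the genes of the list with the smallest p. Over the colon average Ikbkg was higher in KO (0.28, adjusted p = 0.0202) and Rel lower (-0.72, adjusted p = 0.0124). Rel, an NF-kappaB subunit of lymphoid and myeloid cells, was lower in KO at day 13 (-1.55 ± 0.23, adjusted p = 0.00835), as was Nfkbiz, a regulator of NF-kappaB targets (-1.21 ± 0.30, adjusted p = 0.0454). Of 25 adaptors, kinases and cell death genes downstream of the receptors, 4 rose and 1 fell in WT at day 7, where 8.5% of all genes rose and 7.77% fell, and 1 rose in KO at day 7. At day 13 in WT Ripk3 (1.81) and Traf2 (0.37) rose. From day 7 to day 13 in KO Birc2 rose (0.50) and Fadd fell (-0.57). None of the 25 passed between genotypes at any time. Ripk3, a kinase of necroptosis, rose at day 7 in KO (1.41 ± 0.39) and in WT (2.25 ± 0.40). Of 6 genes for shedding and transport of TNF ligands, Rhbdf2 rose in WT at day 7 (0.90), and 3 rose in WT at day 13: Adam10 (0.59), Adam17, the protease that releases TNF (0.54 ± 0.11, adjusted p = 0.0188), and Rhbdf2 (0.82). Of 10 B cell survival and lymphoid organ genes, Madcam1 and Ccl19 rose and Mcl1 fell in WT at day 7, and Cxcl13 and Madcam1 were lower in KO over the colon average. Relt, a superfamily receptor whose symbol lies outside the rule, rose in WT at day 7 (2.39 ± 0.57, adjusted p = 0.0122), while Cd27 and Cd70 stayed under 1 CPM in every library.

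Marker sums of some immune and stromal cells also differed between genotypes, those of fibroblasts and smooth muscle already without treatment. At day 13, 11 of 14 monocyte and macrophage markers and 8 of 12 neutrophil markers were lower in KO, against 1.86% of all genes. Genotype and sex cannot be told apart at that time, and the marker calls were not checked in the alternative fits. The monocyte list summed to 128.5 to 190.0 CPM in KO and 271.0 to 566.7 CPM in WT. The neutrophil list summed to 185.0 to 455.7 CPM in KO and 225.5 to 2368 CPM in WT, with overlap. In each genotype the highest neutrophil sum was in the library with squamous markers, KO replicate 1 and WT replicate 3. The other libraries were at 185.0 and 203.2 CPM in KO and 421.5 and 225.5 CPM in WT. At day 7 the monocyte sums were 179.3 to 263.3 CPM in KO and 376.2 to 551.9 CPM in WT, and the neutrophil sums 142.0 to 159.4 CPM in KO and 307.4 to 505.3 CPM in WT, with no marker passing. T cell markers summed to 7.49 to 8.95 CPM in KO and 16.3 to 39.3 CPM in WT at day 7, and to 8.82 to 17.1 CPM in KO and 13.3 to 42.3 CPM in WT at day 13. Fibroblast markers summed to 772.9 to 1105 CPM in KO and 1469 to 3593 CPM in WT at day 13. They were already apart in untreated colon, at 1027 to 1377 CPM in KO and 1425 to 2339 CPM in WT. Smooth muscle markers summed to 4016 to 4722 CPM in KO and 6304 to 9542 CPM in WT untreated. At day 13 the smooth muscle sums were 3966 to 6794 CPM in KO and 2371 to 4373 CPM in WT, with overlap. None of the 12 markers of colonic epithelium passed between genotypes at any time. The part of these cells in the changes of the members was not tested.

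Tumours carried much of the family at a higher level than untreated colon of the same genotype. The tumours came from mice given AOM and DSS and the untreated colon from mice on water, so tumour and treatment cannot be told apart. Of 41 members tested, 17 were higher and 4 lower in KO tumours, and 20 were higher and 4 lower in WT tumours. Among all genes 26.4% were higher and 23.5% lower in KO, and 27.6% and 21.2% in WT. In KO 5 of 15 ligands and 12 of 26 receptors rose, and in WT 7 of 15 ligands and 13 of 26 receptors. The tumours held 223.1 to 354.9 CPM of smooth muscle marker RNA in KO and 168.9 to 291.6 CPM in WT, while untreated colon held 4016 to 4722 CPM in KO and 6304 to 9542 CPM in WT. Of the 22 TNF-induced genes, 17 rose and 1 fell in KO tumours and 17 rose in WT tumours. Of 14 monocyte and macrophage markers, 13 rose in KO tumours and 12 in WT tumours, and of 12 epithelial markers 10 fell in KO tumours and 4 in WT tumours. The part of the cell makeup in the changes of the members was not tested.

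Tnfrsf11b, the secreted decoy of Tnfsf11, showed the largest fitted rise among members with enough reads in untreated colon. It was at 198.4, 193.0 and 281.0 CPM in KO tumours, against 1.17, 1.197 and 3.89 CPM in untreated KO colon. In WT tumours it was at 61.4, 192.8 and 181.2 CPM, against 1.17, 2.02 and 1.87 CPM in untreated WT colon. All tumours lay above all 18 colon libraries. The log2 change was 6.75 ± 0.87 in KO (adjusted p = 8.7e-06) and 6.42 ± 0.86 in WT (adjusted p = 1.16e-05). Tnfrsf11a, the signalling receptor of Tnfsf11, was lower in tumours, with a log2 change of -1.16 ± 0.28 in KO (adjusted p = 0.00216) and -0.96 ± 0.28 in WT (adjusted p = 0.00814).

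Tnf was at 15.04, 28.1 and 27.7 CPM in KO tumours and 22.0, 28.3 and 42.6 CPM in WT tumours, above all untreated libraries. The log2 change over untreated colon was 3.83 ± 0.65 in KO (14.3-fold, adjusted p = 0.000108) and 5.21 ± 0.70 in WT (36.9-fold, adjusted p = 1.16e-05). Tnfrsf1b was at 72.0, 99.3 and 144.8 CPM in KO tumours and 146.9, 132.1 and 127.8 CPM in WT tumours, again above all untreated libraries. It rose in KO (2.08 ± 0.36, adjusted p = 0.000124) and in WT (2.62 ± 0.36, adjusted p = 1.56e-05). Tnfrsf1a did not pass in either genotype. It was at 62.0, 71.3 and 81.4 CPM in KO tumours (log2 change -0.04, adjusted p = 0.898) and 97.8, 76.4 and 104.5 CPM in WT tumours (0.53, adjusted p = 0.0708).

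Tnfrsf12a, the receptor of Tnfsf12, was at 54.0, 55.0 and 84.1 CPM in KO tumours and 55.5, 51.7 and 85.3 CPM in WT tumours. This put it above every colon library, DSS included. Its log2 change over untreated colon was 3.40 ± 0.42 in KO (adjusted p = 5.78e-06) and 3.57 ± 0.42 in WT (adjusted p = 3.38e-06). Tnfrsf19, a receptor known as a Wnt target and stem cell gene, rose by 4.21 ± 0.64 in KO (adjusted p = 4.46e-05) and 4.09 ± 0.64 in WT (adjusted p = 4.98e-05). Between KO and WT tumours the libraries overlapped for both genes.

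The costimulatory pair Tnfsf9 and Tnfrsf9 rose together. Tnfsf9 was at 9.53, 4.29 and 6.21 CPM in KO tumours and 5.97, 5.38 and 9.56 CPM in WT tumours, with log2 changes of 3.23 ± 0.42 in KO (adjusted p = 9.28e-06) and 2.36 ± 0.40 in WT (adjusted p = 0.000105). Tnfrsf9 was at 8.35, 4.33 and 9.94 CPM in KO tumours and 9.64, 10.2 and 12.8 CPM in WT tumours, with log2 changes of 4.33 ± 0.77 in KO (adjusted p = 0.000167) and 6.07 ± 0.86 in WT (adjusted p = 1.83e-05). All tumours lay above all colon libraries for both genes. Tnfsf18 and Tnfsf4 also rose, from nearly no reads. Tnfsf18 had 124 counts in KO tumours against 4 in untreated KO colon, and 123 in WT tumours against 1. By library these were 89, 25 and 10 counts in KO tumours and 48, 46 and 29 counts in WT tumours. The ratio per library size was 29.0 in KO (95% counting interval 11.04 to 108.1) and 105.7 in WT (18.6 to 4207). Without KO tumour replicate 1 the KO ratio was 12.8 (4.59 to 49.7). Tnfsf4 had 38 counts in KO tumours against 3 (ratio 11.8, 3.76 to 59.97), and 44 in WT tumours against 2 (ratio 18.9, 4.93 to 160.9).

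The decoy Tnfrsf23 was at 16.02, 18.7 and 29.7 CPM in KO tumours and 21.9, 27.3 and 23.0 CPM in WT tumours. It rose in KO (2.004 ± 0.50, adjusted p = 0.003) and in WT (3.88 ± 0.55, adjusted p = 2e-05), from an untreated level that was higher in KO than in WT. The neighbouring Tnfrsf22 and Tnfrsf26 rose in both genotypes as well, by 1.92 and 3.54 in KO and by 1.92 and 3.47 in WT on the log2 scale. Tnfrsf10b, Tnfrsf4 and Tnfsf8 were the other members that rose in both genotypes. Members that passed as higher only in WT tumours were Cd40, Eda2r, Tnfrsf25, Tnfsf10 and Tnfsf14, and Ngfr and Tnfrsf8 passed only in KO tumours. Their difference between genotypes was tested and did not pass for any of them.

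Ltb was at 3.38, 3.02 and 6.09 CPM in KO tumours (log2 change 0.49 over untreated colon, adjusted p = 0.546) and 8.23, 5.73 and 3.22 CPM in WT tumours (0.89, adjusted p = 0.257). Lta was at 0.372, 0.232 and 0.1904 CPM in KO tumours (log2 change -0.62 over untreated colon, adjusted p = 0.509) and 1.29, 0.245 and 0.283 CPM in WT tumours (-0.50, adjusted p = 0.563). Fas was at 4.63, 7.62 and 9.37 CPM in KO tumours (log2 change -0.41 over untreated colon, adjusted p = 0.183) and 11.1, 6.08 and 9.59 CPM in WT tumours (0.03, adjusted p = 0.935). None of these 3 passed in either genotype. Tnfsf13 fell in tumours of both genotypes, with a log2 change of -1.47 ± 0.26 in KO (adjusted p = 0.000182) and -1.27 ± 0.26 in WT (adjusted p = 0.000602). Of the 3 receptors of the B cell factors, Tnfrsf13b passed in neither genotype, at 2.10, 2.09 and 1.52 CPM in KO tumours and 3.24, 2.06 and 2.27 CPM in WT tumours. Tnfrsf13c passed as lower in KO (-3.21 ± 1.10, adjusted p = 0.0211), and Tnfrsf17 passed as lower in WT (-2.62 ± 0.92, adjusted p = 0.0248). B cell and follicle markers summed to 5.58 to 12.4 CPM in KO tumours and 4.89 to 16.8 CPM in WT tumours, against 5.49 to 91.0 CPM in untreated KO colon and 28.8 to 74.6 CPM in untreated WT colon. Tnfrsf14 also passed as lower in KO (-0.81 ± 0.27, adjusted p = 0.0193), and Tnfsf12 in WT (-0.88 ± 0.30, adjusted p = 0.0221).

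**Figure D5:**
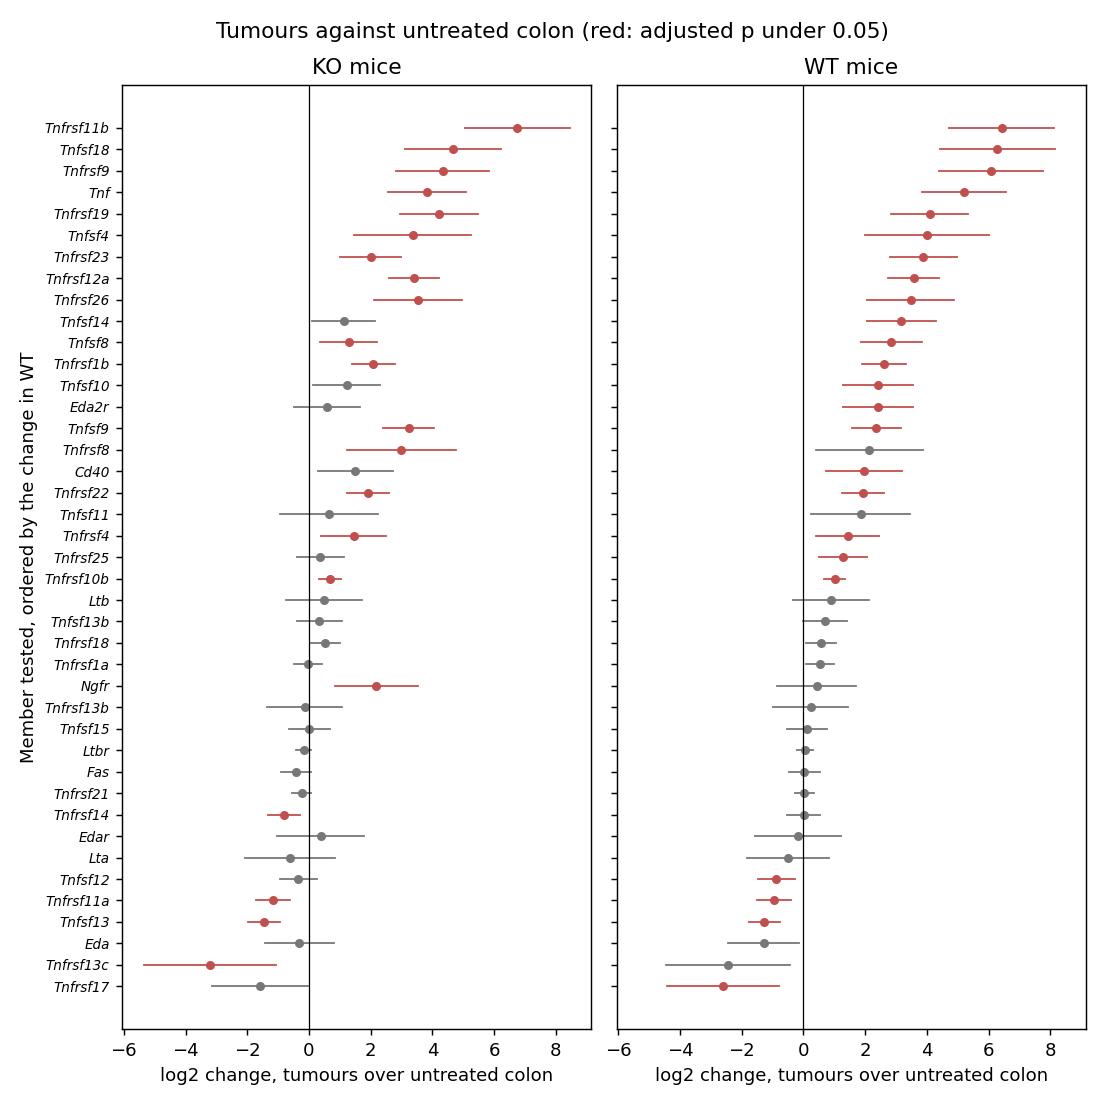
Log2 change of each of the 41 members tested in tumours against untreated colon with its 95% interval, in KO (left) and WT (right), with members that passed in red. Tnfrsf11b, Tnfsf18, Tnfrsf9, Tnf and Tnfrsf19 lie farthest right in both panels, and the fitted values of Tnfsf18 and Tnfsf4 rest on at most 4 counts in untreated colon.

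Between KO and WT tumours no member passed, and 0.0% of 17246 genes did. The 3 smallest p were those of Tnfsf11, the ligand of Tnfrsf11a and Tnfrsf11b, with a log2 change of -0.92, Tnfrsf1a with -0.38 and Tnfrsf10b with -0.43, all at an adjusted p of 0.942. There was 1 member at an unadjusted p under 0.05, against 3.79% of all genes, and DESeq2 called none among 18 genes. KO tumours lay wholly above WT tumours for 1 member and wholly below for 2, where 4.49% and 5.07% of all genes did. The 95% interval was -1.04 to 0.26 for Tnf and -0.85 to 0.12 for Tnfrsf1b. The difference of tumour responses, KO less WT, passed for no gene (0.0%), with Tnfrsf23 (-1.87, adjusted p = 0.465), Tnfsf14 (-2.04, adjusted p = 0.465) and Eda2r (-1.83, adjusted p = 0.528) at the smallest p. There were 5 members at an unadjusted p under 0.05, against 8.67% of all genes, and DESeq2 called none among 88 genes. Eda2r itself varied from 1.957 to 18.5 CPM among the WT tumours. Members tested that passed in no comparison were Eda, Edar, Fas, Lta, Ltb, Ltbr, Tnfrsf13b, Tnfrsf18, Tnfsf11 and Tnfsf15. The comparisons with untreated colon share their untreated libraries with the DSS comparisons above.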

How the data were processed

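RNA of 24 libraries was sequenced by the submitters. The deposited tables hold, per the file headers, an expected count and a TPM value per gene and library. Per the submitters' processing notes, the authors used STAR 2.7.6a, RSEM 1.3.1 and the GRCm38 build for both units. The sources used here name neither the annotation release nor the strand setting. RSEM shares ambiguous reads between genes, so near copies can exchange counts, and 11.0% to 12.4% of values were not whole.

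Counts were rounded and scaled by TMM, and genes were kept by filterByExpr (minimum count 10, minimum total 15). The quasi-likelihood F test of edgeR 4.0.16 in R 4.3.3 was run with 1 fit for the 18 colon libraries, 1 for the 6 tumours and 1 for all 24, with Benjamini-Hochberg adjustment over all genes tested and a threshold of 0.05. The SE is the log2 change divided by the square root of F, and the 95% interval is 1.96 SE to either side. CPM were computed from the TMM-scaled library totals. The code was tested on simulated data. Groups come from the labels. Replicate numbers follow the order of the deposited samples and pair nothing. The p-values rest on the spread between libraries within groups, estimated over all groups of a fit and drawn towards the trend over all genes.

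The alternatives were DESeq2 1.42.0, its size factors in edgeR, no filter, a fit on the compared groups alone and a covariate for Y-linked expression. Each library was also left out in turn, and 1 fit used all 24 libraries. Another left out 4 colon libraries whose sequencer sample numbers repeat among the colon libraries. The tumour libraries carry numbers 9 to 14, which colon libraries carry as well, and no fit addressed that. A fit without the 4 set apart by markers was chosen after seeing the data. Each member that passed was named where at most 12 did, otherwise 6 per direction by p, and the 3 smallest p where none did. Library values are given for members that passed between genotypes, those with small p elsewhere, and Tnf, Lta, Ltb, Tnfrsf1a, Tnfrsf1b, Fas and Tnfrsf11b. The members and gene lists were chosen with earlier results of these data known. Counting intervals cover counting error only.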

Additional observations from a re-analysis of the deposited data

How the results depend on the processing

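The direction of most single-member changes did not depend on the settings tried: of the alternatives, 953 gave the same outcome, whether passing or not, 219 lost a call, 21 gained one and 2 turned the sign, all of values that had not passed. Those were Tnf at day 13 against untreated KO colon, at -0.25 with the Y-linked covariate (adjusted p = 0.99), and Tnfrsf11b at day 13 against day 7 in WT, at -0.21 without WT day 13 replicate 3 (adjusted p = 0.883) and up to 2.37 without WT day 7 replicate 2. Calls between genotypes were less stable. At day 13 they were lost in 9 of 13 alternatives for Tnfrsf11b, 9 of 12 for Tnfsf14, 8 of 13 for Tnfrsf23 and 7 of 13 each for Tnfrsf1b and Tnfrsf10b. Over the colon average they were lost in 16 of 24 each for Tnfrsf11b and Tnfrsf1b, 14 for Cd40, 11 for Tnfsf13b and 8 for Tnfsf9. The number of members passing varied as well. For KO against WT at day 13 it was 3 without a filter, 0 with the Y-linked covariate, 11 with DESeq2, 0 with the compared groups alone, 3 without the libraries of repeated sample numbers and 1 without those set apart by markers. For KO against WT averaged over colon it was 3, 3, 16, 0 and 3 with no filter, the covariate, DESeq2 and those 2 sets of libraries left out. For KO against WT at day 7 DESeq2 gave 11. At day 7 against untreated it was 5 with the compared groups alone and 3 without the repeated numbers in WT, and 2 with the covariate, 7 with DESeq2, 1 without the repeated numbers and 7 without the libraries apart in KO. At day 13 against untreated in WT it was 4 with no filter, 13 with DESeq2, 2 with the groups alone, 0 without the repeated numbers and 12 without the libraries apart. The difference of responses gave 1 at day 7 and 6 at day 13 with DESeq2. With single libraries left out, the count for KO against WT ran from 0 to 9 at day 7, 0 to 12 at day 13 and 0 to 15 for the average. Against untreated colon it ran from 5 to 10 (WT) and 1 to 3 (KO) at day 7, from 0 to 13 in WT at day 13, and in tumours from 17 to 21 (KO) and 19 to 25 (WT). From day 7 to day 13 in KO it ran from 1 to 2, and for the difference of the day 13 responses from 0 to 4. Where a group is left with 2 libraries, the pooled spread is assumed to hold for it. No paired analysis was possible because the labels carry no replicate numbers that the groups share. Low members limit the precision, as Cd40lg and Fasl passed the low-count filter in none of the 3 fits.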
